A study of Mus musculus with 18 samples.

Results

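Trappc2l, Def8, Rhou and Abcb10 are 4 genes on mouse chromosome 8 that lie near Egln1, the gene deleted in this study, and whose expression differed between muscle with and without EglN1. They were picked from 19938 genes because their knockout (KO) and wild-type (WT) values differed, so their KO-minus-WT values below are a description and carry no test. Each was read by 1 probe set, and all 4 passed the filter on low values in muscle and in heart. Expression was measured on 18 whole-transcript arrays, 3 in each of 6 groups. Soleus and quadriceps came from mice on a C57BL/6 background with a tamoxifen-inducible Cre recombinase of skeletal muscle, and all of these mice were given tamoxifen for 3 days before harvest. KO mice carried a floxed EglN1 locus, and WT mice carried the same recombinase without it. Numbers in the labels join 1 soleus and 1 quadriceps array, read here as 6 mice, 3 of each genotype. Hearts came from other C57BL/6 mice with WT EglN1, given either vehicle or the EglN inhibitor FG-4497, injected into the peritoneum at a dose of 50 mg per kg. The series title speaks of smooth muscle, while the labels of the arrays name skeletal muscle and heart. The labels give no ages, do not name the promoter that drives Cre, and state that mice were back-crossed to C57BL/6 without giving the number of generations. The floxed allele and the chromosome 8 DNA linked to it belonged to KO mice alone, so in muscle loss of EglN1 and any difference in linked DNA cannot be told apart. No probe sequences were at hand, so the probes of the 4 genes were not compared with strain variants.

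EglN1, also called PHD2, is an oxygen-dependent hydroxylase that marks the hypoxia-inducible transcription factors (HIF) for degradation. HIF binds short DNA elements near its target genes. Genes close to each other on a chromosome are inherited together, so a modified locus moves through a back-cross with its neighbours. The 4 genes have unrelated products. Trappc2l encodes a subunit of the TRAPP complexes, which tether transport vesicles and activate Rab proteins. Def8 encodes a protein that works with Rab7 and Plekhm1 in placing lysosomes. Rhou encodes a GTP-binding protein that acts on the actin cytoskeleton and is induced by Wnt signalling. Abcb10 encodes a transporter of the mitochondrial inner membrane that is needed for haem synthesis in red cell precursors.

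All 4 genes lay on the same side of Egln1. Counted in tested genes in chromosome order (GRCm38.p6 gene order), 15 genes stood between Abcb10 and Egln1, 21 between Rhou and Egln1, 25 between Def8 and Egln1 and 44 between Trappc2l and Egln1. Beyond Egln1, 15 tested genes remained to the end of the chromosome. The 250 bases before the start of each gene, from RefSeq on GRCm38.p6, are shown because the deleted enzyme controls HIF and the core of a HIF element is ACGTG or GCGTG. Capitals mark these letters on either strand (CACGT and CACGC on the other strand). ACGTG is also contained in the CACGTG E-box. Windows are those of Trappc2l (chr8:122611376-122611625, + strand), Def8 (chr8:123442706-123442955, + strand), Rhou (chr8:123653679-123653928, + strand), Abcb10 (chr8:123983123-123983372, - strand) and Egln1 (chr8:124949255-124949504, - strand).
Trappc2l: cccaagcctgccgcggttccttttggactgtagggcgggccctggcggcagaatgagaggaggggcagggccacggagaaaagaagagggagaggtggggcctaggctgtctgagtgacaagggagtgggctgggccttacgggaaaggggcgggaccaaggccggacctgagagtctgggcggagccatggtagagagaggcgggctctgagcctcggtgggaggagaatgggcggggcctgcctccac
Def8: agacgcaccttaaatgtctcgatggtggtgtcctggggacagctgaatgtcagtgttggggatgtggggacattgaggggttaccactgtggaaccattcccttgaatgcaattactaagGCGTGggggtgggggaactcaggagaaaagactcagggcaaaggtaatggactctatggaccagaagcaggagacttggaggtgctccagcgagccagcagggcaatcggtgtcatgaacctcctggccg
Rhou: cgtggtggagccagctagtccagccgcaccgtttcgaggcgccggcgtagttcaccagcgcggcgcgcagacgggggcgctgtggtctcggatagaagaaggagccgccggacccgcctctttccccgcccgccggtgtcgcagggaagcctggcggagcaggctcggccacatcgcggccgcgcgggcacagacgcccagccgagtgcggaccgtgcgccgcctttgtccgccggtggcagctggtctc
Abcb10: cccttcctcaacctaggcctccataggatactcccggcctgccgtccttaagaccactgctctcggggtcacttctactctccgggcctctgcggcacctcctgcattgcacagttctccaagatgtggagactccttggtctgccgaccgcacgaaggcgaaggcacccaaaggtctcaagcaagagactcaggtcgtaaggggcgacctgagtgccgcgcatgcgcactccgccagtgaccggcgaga
Egln1: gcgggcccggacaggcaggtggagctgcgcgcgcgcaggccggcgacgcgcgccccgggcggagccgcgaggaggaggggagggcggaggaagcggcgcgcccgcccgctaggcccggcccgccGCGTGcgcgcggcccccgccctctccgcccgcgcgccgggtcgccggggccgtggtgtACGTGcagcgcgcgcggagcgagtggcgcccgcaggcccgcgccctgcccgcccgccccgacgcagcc
These letters occurred 2 times before Egln1, 1 time before Def8 and 0 times before Trappc2l, Rhou and Abcb10. A second start of Def8 had 1 match as well. Among 32851 promoter windows of this length, 38.6% held at least 1 match. A match is a run of letters and was not shown here to be bound, and its absence speaks of these 250 bases alone. The windows also differed in CpG content, with 36 CpG dinucleotides before Rhou and 51 before Egln1 against 12, 6 and 17 before Trappc2l, Def8 and Abcb10, where the median window had 6. The window of the second start of Def8 had 16.

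Trappc2l was higher in KO muscle, by 1.86-fold in soleus and 1.91-fold in quadriceps. In soleus its log2 values were 10.77, 10.72 and 10.67 in KO and 9.89, 9.80 and 9.79 in WT. In quadriceps they were 10.53, 10.52 and 10.43 in KO and 9.53, 9.54 and 9.63 in WT. Every KO array lay above every WT array of the same muscle, with an empty interval of 0.78 in soleus and 0.80 in quadriceps and a standard deviation (SD) within groups of 0.05 in both. The log2 difference was 0.89 (standard error, SE, 0.06) in soleus and 0.93 (SE 0.06) in quadriceps, which were the 12th and 16th largest by size of 13318 tested genes. In soleus and quadriceps, Def8 ranked 70th and 584th, Rhou 91st and 23rd, and Abcb10 106th and 221st.

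Def8 was lower in KO muscle. Its soleus values were 8.24, 8.28 and 8.32 in KO against 8.75, 8.71 and 8.78 in WT, a log2 difference of -0.47 (SE 0.05) with an SD within groups of 0.04. Quadriceps values were 8.55, 8.57 and 8.51 in KO against 8.81, 8.84 and 8.79 in WT, a difference of -0.27 (SE 0.05). The groups did not overlap in either muscle. The difference between the muscles, -0.20 (SE 0.07), was not tested, since both effects belong to the comparison that chose the gene.

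Rhou was lower in KO muscle too, with the wider difference in quadriceps. There its values were 8.36, 8.36 and 8.49 in KO against 9.22, 9.21 and 9.18 in WT, so that KO stood at 0.57 of WT (log2 difference -0.80, SE 0.09). In soleus KO arrays stood at 9.26, 9.02 and 9.48, and WT at 9.77, 9.70 and 9.60, a log2 difference of -0.44 (SE 0.09). Groups did not overlap in either muscle, but the KO soleus arrays were spread over 0.23 (SD), and the interval between the groups was only 0.12. The muscles differed by 0.37 (SE 0.12), which was not tested for the same reason.

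Abcb10 was higher in KO muscle by about as much in both muscles. Soleus values were 8.35, 8.39 and 8.45 in KO against 8.06, 7.98 and 7.90 in WT, a 1.33-fold difference (log2 0.42, SE 0.07). Quadriceps values were 8.26, 8.24 and 8.18 in KO against 7.86, 7.96 and 7.71 in WT, a 1.3-fold difference (log2 0.38, SE 0.07). No KO array overlapped a WT array of its muscle. Abcb10 is known from red cell precursors, and erythroid markers were therefore read beside it. Of 7 listed, 3 were measured, and their mean over the list lay at 7.33 to 7.58 in KO soleus arrays, 7.25 to 7.61 in WT soleus, 7.46 to 7.53 in KO quadriceps and 6.95 to 7.72 in WT quadriceps. These ranges overlapped between KO and WT in each muscle. Epb42, 1 of the 3, read 5.22 to 5.47 in muscle, under the filter level of 6.19. The part of blood cells in the Abcb10 difference was not tested. Bulk tissue cannot tell fewer cells of a type from less RNA per cell.

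**Figure D1:**
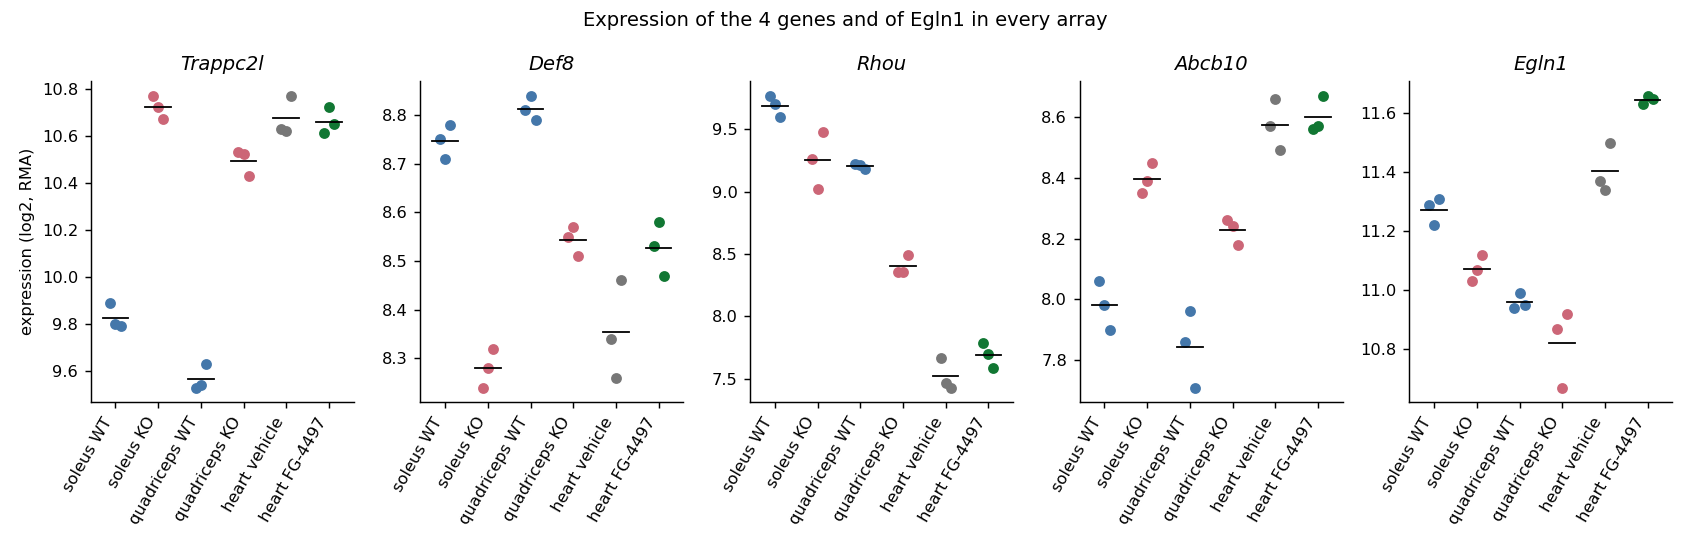
Expression on the log2 scale of the deposited values (vertical axis, scaled for each gene) in each of the 18 arrays by group for Trappc2l, Def8, Rhou, Abcb10 and Egln1; points are arrays and bars are means of 3. KO and WT points of a muscle are apart in all 5 panels, and vehicle and FG-4497 hearts overlap for Trappc2l, Rhou and Abcb10.

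With the rule applied to all genes (Benjamini-Hochberg adjusted p under 0.05 in limma), Trappc2l, Def8 and Abcb10 were called in both muscles, and Rhou in quadriceps. Over all tested genes 0.18% were called in soleus (0.12% higher, 0.0601% lower), 0.683% in quadriceps (0.278% higher, 0.405% lower), 0.12% in both and 0.743% in either. Groups did not overlap for 12.2% of tested genes in soleus and 16.5% in quadriceps. Nothing is read from these shares, because this comparison chose the genes. The calls of Trappc2l in both muscles, of Def8 in soleus and of Rhou in quadriceps held when any 1 array was left out. That of Abcb10 in soleus was lost without any 1 of the 6 soleus arrays, quadriceps KO replicates 1 to 3 or quadriceps WT replicate 1. In quadriceps the call of Def8 was lost without any 1 of the 6 quadriceps arrays or of soleus replicates KO 1, KO 2, WT 1 and WT 3, and that of Abcb10 without any 1 of quadriceps KO replicates 1 to 3, quadriceps WT 1 and 3, soleus KO 1 and 2 and soleus WT 2. Rhou was called in soleus without soleus KO replicate 3. Outside the 4, the widest differences within 50 tested genes of Egln1 were those of Dpep1, a membrane dipeptidase, at 0.43 (SE 0.18) in soleus and 0.41 (SE 0.18) in quadriceps. Its KO and WT arrays overlapped in both muscles (8.93 to 9.33 against 8.50 to 8.97 in soleus, 9.91 to 10.34 against 9.31 to 10.04 in quadriceps). Dpep1 was named after its values were seen. In size they exceeded that of Abcb10 in both muscles and that of Def8 in quadriceps, with a wider spread.

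Egln1 itself differed less than the 4 genes. Its values were 11.03, 11.07 and 11.12 in KO and 11.29, 11.22 and 11.31 in WT soleus, and 10.87, 10.67 and 10.92 in KO and 10.94, 10.99 and 10.95 in WT quadriceps. The log2 differences of -0.20 (SE 0.07) and -0.14 (SE 0.07) did not pass (limma adjusted p = 0.438 and 0.47), and without quadriceps KO replicate 2 the difference in quadriceps was -0.06 (SE 0.06). The deleted part of Egln1 is not given in the labels, and 1 probe set sums over the transcript, so this reading is a limited check of the genotype.

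The genes around Egln1 were then counted as a neighbourhood. Of the 61 other genes within 50 tested genes of Egln1, 0 were called in soleus and 0 in quadriceps by limma, against 0.18% and 0.683% of all tested genes, so 0 of 61 is near the background. Of the 61, 11 in soleus and 13 in quadriceps had an unadjusted limma p under 0.05. These are larger shares than the 7.23% and 11.6% of all tested genes. Of these 11 and 13, 6 in soleus and 11 in quadriceps were lower in KO. Further, 6 of these 61 (9.84%) had KO and WT arrays that did not overlap in both muscles in 1 direction, against 2.79% of all tested genes and 2.67% of the 600 genes farther along chromosome 8. All 6 were lower in KO. They were Agt, which encodes angiotensinogen (-0.21 in soleus and -0.21 in quadriceps), Cdh15, the M-cadherin of muscle precursor cells (-0.19 and -0.19), Urb2, a ribosome biogenesis factor (-0.11 and -0.27), Tcf25 (-0.14 and -0.15), Pard3, a cell polarity protein (-0.16 and -0.12), and Zfp276, a zinc finger protein (-0.06 and -0.14). None of these passed over all genes (limma adjusted p from 0.117 to 0.929). With the 4 genes left out, 3 of 38 (7.89%) were apart in this way within 25 tested genes of Egln1. Within 100 tested genes 7 of 111 (6.31%) were. These counts rested on small differences and were not tested.

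Of the 6 genes within 50 tested genes, most lay between Trappc2l and Egln1, as did 41 of the 61 genes counted. Trappc2l, which bounds this interval, was itself chosen for its KO difference. In that interval 5 of 41 other genes (12.2%) were apart in both muscles, beyond Egln1 1 of 15 (6.67%), and among the 50 genes before Trappc2l 1 of 50 (2.0%). The median size of the log2 difference in the interval was 0.097 in soleus and 0.097 in quadriceps, against 0.059 and 0.068 over all tested genes. Directions in the interval were mixed in soleus, where 5 of the 41 were apart and higher and 7 apart and lower. In quadriceps 0 were apart and higher and 10 apart and lower, and over all tested genes too more were lower (1445) than higher (754) there. Sprtn, a protease of DNA repair and the nearest tested gene on the one side of Egln1, differed by -0.08 (SE 0.06) and -0.11 (SE 0.06), and Tsnax, the partner of translin on the other, by -0.03 (SE 0.08) and -0.12 (SE 0.08).

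The genes directly beside the 4 were then read. The tested genes on either side of Trappc2l, Galns and Cbfa2t3, differed by -0.19 and -0.07 in soleus and by -0.08 and -0.16 in quadriceps, where Trappc2l stood at 0.89 and 0.93. Mc1r and Afg3l1 beside Def8 lay between -0.09 and 0.05 in both muscles. Rab4a beside Rhou was at 0.17 (SE 0.09) and 0.04 (SE 0.09), and n-R5s136, a ribosomal RNA gene on its other side, at 0.38 (SE 0.22) and -0.12 (SE 0.22). The neighbours of Abcb10, Nup133 and Taf5l, stood at -0.26 and 0.09 in soleus and at 0.07 and -0.09 in quadriceps. None of these 8 genes was called (limma adjusted p from 0.464 to 0.975), and they were named for their position.

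**Figure D2:**
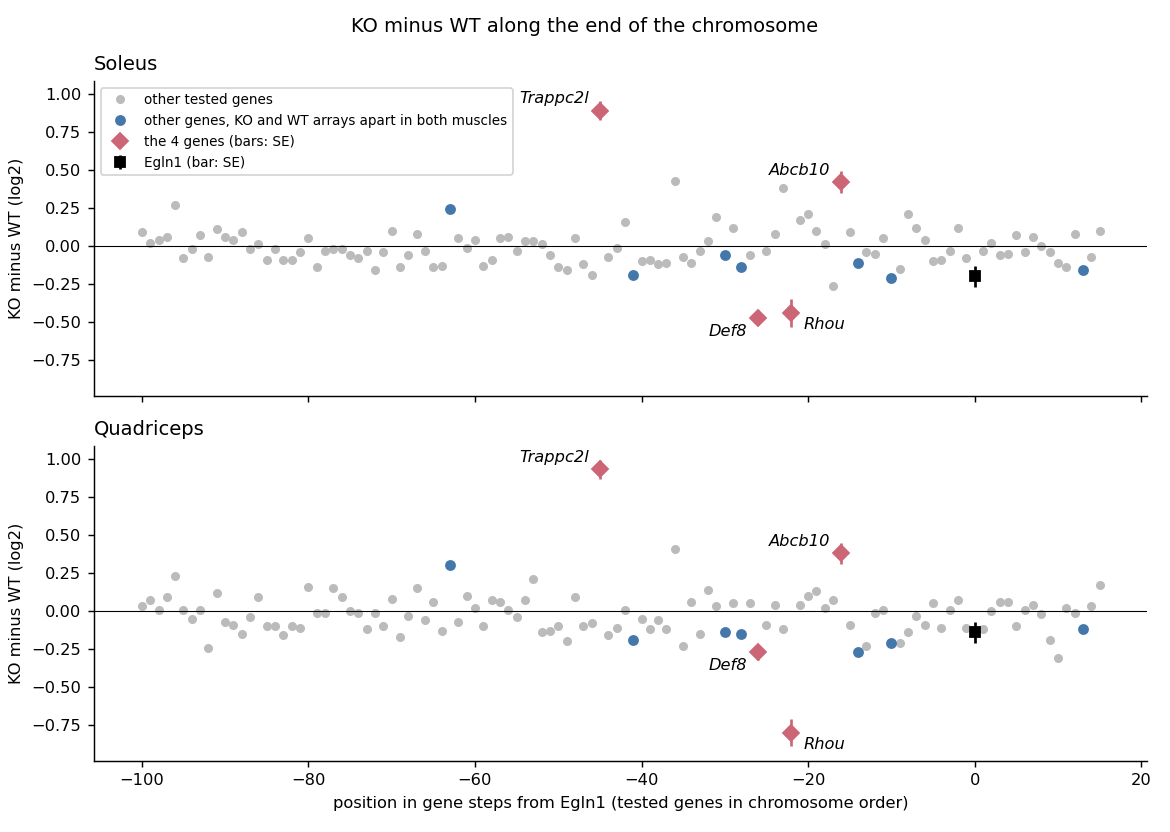
KO-minus-WT log2 difference (vertical axis) of the tested genes from 100 steps before Egln1 to the end of the chromosome (horizontal axis, in tested genes, not bases) in soleus and quadriceps; diamonds are the 4 genes with SE, and blue points other genes whose KO and WT arrays were apart in both muscles. Trappc2l (0.89 and 0.93) stands far above its neighbours, and the other genes apart in both muscles within 50 steps lie between -0.27 and -0.06.

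Expression was next compared between the muscles, averaged over genotype. This contrast is orthogonal to KO minus WT and did not choose the genes. Its estimate of spread is shared with the KO-minus-WT fit, so its intervals and p-values are not wholly separate from the rule. Rhou showed the widest difference and was 1.59-fold higher in soleus (log2 0.67, 95% interval 0.54 to 0.80, limma adjusted p = 6.95e-07), in 6 of 6 mice. Trappc2l was 1.18-fold higher in soleus (0.24, interval 0.17 to 0.32, adjusted p = 7.03e-05), in 6 of 6 mice. Def8 was lower in soleus by 0.16 (interval -0.24 to -0.09, adjusted p = 0.000816), in 6 of 6 mice. Abcb10 was 1.11-fold higher in soleus (0.16, interval 0.05 to 0.26, adjusted p = 0.0128), in 5 of 6 mice. Over all genes 55.4% were called in this comparison (27.7% higher and 27.7% lower in soleus), and nothing particular to the 4 genes is read from their 4 of 4.

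Within mice the muscle differences of Trappc2l were nearly constant, from 0.26 to 0.27 in WT and from 0.20 to 0.24 in KO mice. For Rhou they ranged from 0.39 to 0.59 in WT and from 0.66 to 0.99 in KO mice, and for Def8 from -0.10 to -0.04 in WT and from -0.32 to -0.19 in KO mice. For Abcb10 they ranged from -0.06 to 0.35 in WT and from 0.09 to 0.27 in KO mice. From the WT arrays alone, the muscle difference of Def8 was -0.06 (SE 0.05, adjusted p = 0.351) and that of Abcb10 0.14 (SE 0.07, adjusted p = 0.164), so both calls were lost there, while Trappc2l and Rhou passed.

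**Figure D3:**
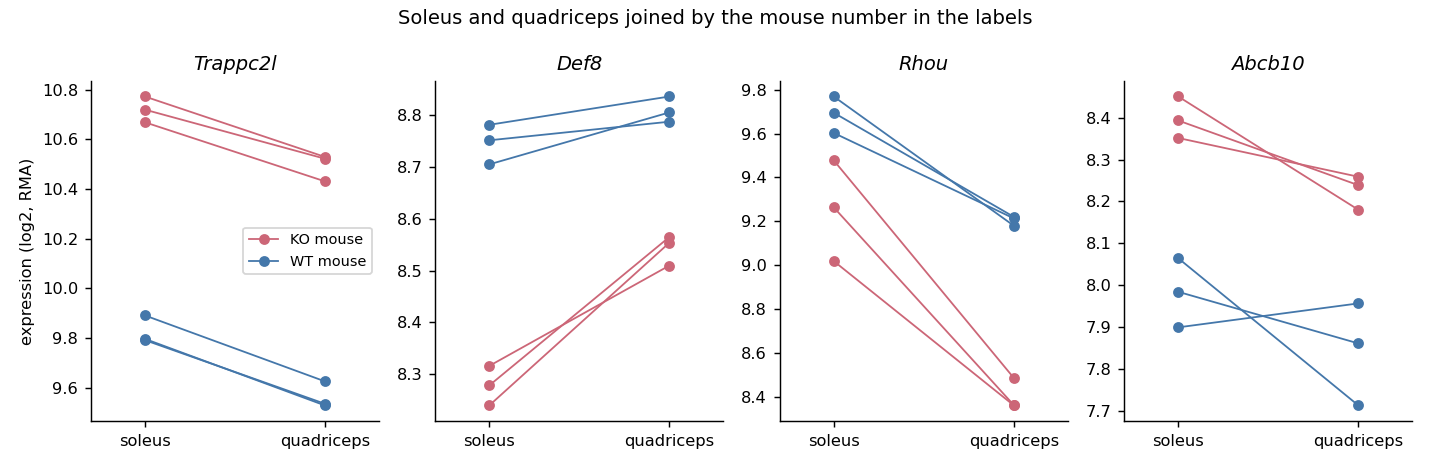
Expression on the log2 scale (vertical axis, scaled for each gene) in soleus and quadriceps, with lines joining arrays that carry the same mouse number, red for 3 KO and blue for 3 WT mice. Lines of Trappc2l run parallel at 2 levels, those of Def8 and Rhou are steeper in KO mice, and 1 WT line of Abcb10 runs against the others.

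Hearts came from mice with WT EglN1 that were given the EglN inhibitor FG-4497 or vehicle. This comparison differs from KO minus WT in tissue and in how EglN1 was changed, by a drug or by gene deletion. Whether EglN was inhibited in these hearts was not tested. None of the 4 genes passed there (0 of 4 in limma, and 0 of 4 at an unadjusted p under 0.05). Of 13431 tested genes, 1.77% were called in heart (1.3% higher, 0.477% lower), and 10.6% had an unadjusted limma p under 0.05. With so few genes, 0 of 4 is near both shares. Trappc2l read 10.61, 10.72 and 10.65 with FG-4497 and 10.63, 10.62 and 10.77 with vehicle, a log2 difference of -0.01 (95% interval -0.19 to 0.17, limma adjusted p = 0.992). Abcb10 read 8.56, 8.57 and 8.67 against 8.57, 8.66 and 8.49, a difference of 0.03 (interval -0.16 to 0.21, adjusted p = 0.972). For both genes the values of the groups were interleaved.

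Def8 and Rhou, lower in KO muscle, were not lower in treated hearts. Def8 read 8.53, 8.58 and 8.47 with FG-4497 and 8.34, 8.26 and 8.46 with vehicle, with groups just apart (0.17, interval -0.02 to 0.36, limma adjusted p = 0.546). By comparison, 15.5% of all tested genes had groups apart in heart. Rhou read 7.79, 7.70 and 7.59 against 7.67, 7.47 and 7.43, overlapping (0.17, interval -0.04 to 0.38, adjusted p = 0.637). For none of the 4 genes was the difference in heart tested against that in muscle. Egln1 read 11.63, 11.66 and 11.65 with FG-4497 against 11.37, 11.34 and 11.50 with vehicle (0.24, interval 0.07 to 0.42, adjusted p = 0.225; adjusted p = 0.0273 with a trended, robust prior).

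Across the 6 groups the genes fell into different orders. Trappc2l was highest in KO soleus (10.72 ± 0.05, SD, n = 3), vehicle heart (10.68 ± 0.08) and FG-4497 heart (10.66 ± 0.05), whose neighbours in this order overlapped, followed without overlap by KO quadriceps (10.49 ± 0.05), WT soleus (9.83 ± 0.06) and WT quadriceps (9.56 ± 0.05). Abcb10 was highest in both heart groups (8.60 ± 0.06 and 8.57 ± 0.09, overlapping), then in KO soleus, KO quadriceps and, overlapping each other, WT soleus and WT quadriceps (7.98 ± 0.08 and 7.84 ± 0.12). Rhou ran the other way, from WT soleus (9.69 ± 0.08) to vehicle heart (7.52 ± 0.13), with KO soleus and WT quadriceps overlapping at 9.25 ± 0.23 and 9.20 ± 0.02 and both heart groups overlapping. Def8 was highest in WT quadriceps (8.81 ± 0.02) and WT soleus (8.75 ± 0.04), and lowest in vehicle heart (8.35 ± 0.10) and KO soleus (8.28 ± 0.04), which overlapped, as did KO quadriceps and FG-4497 heart in between. For Trappc2l, Abcb10 and Rhou the mean of each KO group lay nearer to both heart groups than that of WT in the same muscle, and for Def8 nearer to vehicle heart. Heart and muscle were separate experiments.

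Relatives of Trappc2l, Def8 and Abcb10 were read from lists chosen for their function. Their counts are to be read against the shares of all tested genes, of which 0.18% were called in KO soleus, 0.683% in KO quadriceps, 55.4% between muscles (27.7% each way) and 1.77% in heart, and 7.23%, 11.6% and 10.6% had an unadjusted p under 0.05 in KO soleus, KO quadriceps and heart. Among TRAPP subunits, 0 of 13 tested relatives of Trappc2l were called in either KO muscle (limma; 0 in soleus and 2 in quadriceps at an unadjusted p under 0.05), with log2 differences from -0.11 to 0.10 in soleus and from -0.18 to 0.15 in quadriceps. Medians were -0.02 and -0.05, against 0.001 and -0.016 over all tested genes. The widest was Trappc5, a core subunit, at -0.11 (SE 0.08) and -0.18 (SE 0.08). Between muscles 3 of 13 were higher and 3 lower in soleus, near the 27.7% each way of all genes, among them Trappc12 at 0.34, Trappc3 at 0.30, Trappc6b at -0.32 and Trappc2, the paralogue of Trappc2l, at -0.25 (adjusted p = 1.5e-05, 4.89e-05, 6.22e-05 and 0.0115). In heart 0 of 13 were called (0 at an unadjusted p under 0.05), and the widest was Trappc6a at 0.17 (SE 0.11).

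Of 11 tested genes that act with Def8 in lysosome position, 1 was called in KO soleus and 0 in KO quadriceps, against 0.18% and 0.683% of all genes (limma; 1 and 1 at an unadjusted p under 0.05). The called gene was Kif5b, the heavy chain of kinesin-1, which moves lysosomes outward (log2 difference -0.63, SE 0.07, adjusted p = 0.00104 in soleus, and 0.02, SE 0.07, in quadriceps). Plekhm1, the partner of Def8, was widest in quadriceps at -0.12 (SE 0.08). The medians of the list were 0.02 and -0.01. Between muscles, where 55.4% of all genes were called, 3 were higher and 5 lower in soleus, led by Fyco1, an adaptor of lysosome transport, at 0.72 and Rubcn, an inhibitor of autophagosome maturation, at -0.54 (adjusted p = 3.28e-08 and 3.34e-08). Osbpl1a, a Rab7-binding sterol sensor, stood at 0.34 and Vps41, a subunit of the HOPS tethering complex, at -0.29 (adjusted p = 3.46e-06 and 4.77e-05). In heart 0 of 11 were called, against 1.77% of all genes (1 at an unadjusted p under 0.05), with Rab7b widest at -0.27 (SE 0.11).

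Of 15 tested haem synthesis genes and mitochondrial ABC transporters other than Abcb10, 0 were called in soleus and 0 in quadriceps (limma; 0 and 3 at an unadjusted p under 0.05), with medians of -0.01 and -0.02. Slc25a37, the iron importer mitoferrin-1, stood at -0.08 (SE 0.12) in soleus, and Abcb6, a porphyrin transporter, at -0.26 (SE 0.07, adjusted p = 0.126) in quadriceps. Between muscles 4 were higher and 8 lower in soleus, where 27.7% of all genes were called each way. Alad and Alas1, enzymes of the early steps, stood at 0.77 and 0.40 (adjusted p = 3.36e-09 and 5.54e-06), and Abcb6 and Slc25a37 at -0.67 and -0.65 (adjusted p = 2.71e-08 and 7.04e-06). In heart, where 1.77% of all genes were called, 1 of 15 was called, Alas2, the first haem enzyme of red cell precursors. It was 1.95-fold higher with FG-4497 (limma adjusted p = 0.00799). At an unadjusted limma p under 0.05 there were 3 of 15, against 10.6% of all tested genes. The mean of the 3 measured erythroid markers went from between 7.03 and 7.17 in vehicle to between 7.48 and 7.84 in FG-4497 hearts. Alas2 is itself part of this mean and went from 8.87 to 9.83, Slc4a1 from 7.1 to 7.52 and Epb42 from 5.3 to 5.53. Epb42 lay under the heart filter level of 6.26, and of the 2 tested markers only Alas2 was called. The part of blood cells in the rise of Alas2 was not tested. The median of the haem list in heart was 0.11, against -0.002 over all genes.

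**Figure D4:**
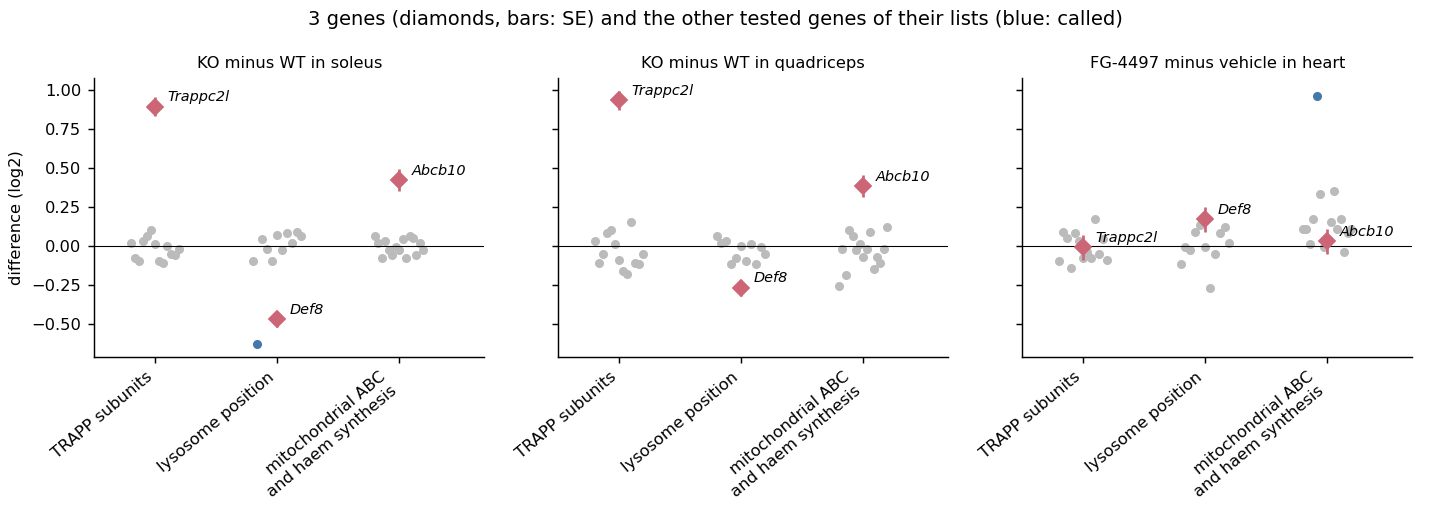
Log2 differences (vertical axis) of Trappc2l, Def8 and Abcb10 (diamonds, bars are SE) and of the other tested genes of their functional lists (grey, blue where called) for KO minus WT in soleus and quadriceps and FG-4497 minus vehicle in heart. In KO muscle Trappc2l stands at 0.89 and 0.93 over subunits that lie between -0.18 and 0.15, and in heart the 3 genes lie between -0.01 and 0.17.

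Genes with the pattern most like each of the 4 were ranked by Pearson's r over the 12 muscle arrays, after the mean of each muscle was removed. Since the 4 genes were chosen for their KO difference and arrays share mice, these r values are a description. Trappc2l was followed most closely by Gdpd3, a phosphodiesterase of lysophospholipids on chromosome 7 (r = 0.971), the probe set of Mir30c-2 on chromosome 1 (0.966) and Abhd1 on chromosome 5 (0.963). Log2 KO differences in soleus and quadriceps were 4.01 and 3.59 for Gdpd3, 0.65 and 0.54 for Mir30c-2 and 1.77 and 1.17 for Abhd1. Def8 was followed by Wwox, an oxidoreductase on chromosome 8 (0.958, KO differences of -0.38 and -0.22), Piwil2 on chromosome 14 (0.942, -0.71 and -0.38) and Ston2 on chromosome 12 (0.939, -0.35 and -0.32). For Rhou these were Hgsnat, a lysosomal acetyltransferase on chromosome 8 (0.956, -0.20 and -0.31), Nsun2 on chromosome 13 (0.953, -0.10 and -0.13) and Mllt1 on chromosome 17 (0.946, -0.08 and -0.24). Hgsnat lay far from Egln1, at step -588 in tested genes, and Wwox lay more than 100 tested genes from Egln1. For Abcb10 they were Bin3 on chromosome 14 (0.962, 0.27 and 0.27), Mir30c-2 (0.939) and Gdpd3 (0.934). Among themselves, Trappc2l and Abcb10 correlated at 0.94 and Def8 and Rhou at 0.803.

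Tissue labels were checked against markers. Slow muscle markers averaged 13.37 to 13.46 in soleus and 6.68 to 9.11 in quadriceps, fast muscle markers 13.69 to 13.80 in quadriceps and 11.82 to 13.17 in soleus, and heart markers 11.78 to 12.02 in heart and 6.38 to 7.08 in muscle. Of the heart markers, Myl7, an atrial myosin light chain, read 6.17 to 6.72 in heart and 6.08 to 6.47 in muscle. Myh4, a myosin heavy chain of fast fibres, varied widely among WT soleus arrays, from 8.99 to 13.31, against 12.48 to 12.73 in KO soleus. The KO-minus-WT values of the 4 genes in soleus kept their direction when any 1 array was left out, from 0.87 to 0.92 for Trappc2l, from -0.49 to -0.45 for Def8, from -0.54 to -0.32 for Rhou and from 0.36 to 0.47 for Abcb10. Markers of endothelial cells, macrophages and adipocytes were called in neither KO muscle (limma, 0 of 6, 0 of 5 and 0 of 5). Of all tested genes only 0.18% in soleus and 0.683% in quadriceps were called, so these counts do not show equal cell content. The median of the adipocyte list was 0.34 in soleus and 0.31 in quadriceps, against 0.001 and -0.016 over all tested genes.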

How the data were processed

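The deposited log2 values came from RMA, as the submitters' processing notes name it, a method that removes background, equalizes the distributions of the arrays and summarizes the probes of each set. No further scaling was applied. Array medians lay between 6.68 and 6.81, and arrays of a group correlated at r from 0.986 to 0.995. Arrays have no read depth, so 3 arrays per group limit the precision.

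Of 35556 probe sets, 21789 named 1 gene, 1621 several, and for 12146 the annotation table held none. Symbols of 21698 were updated through gene identifiers (GRCm38.p6 table), and the brightest probe set stood for each gene. Genes averaging under the 40th percentile of all probe sets (6.19 in muscle, 6.26 in heart) were left out, which left 13318 and 13431 genes. limma 3.58.1 in R 4.3.3 fitted the 12 muscle arrays with 4 group means and the mouse number as a random block (correlation 0.17), and the 6 heart arrays separately. Deviations of same-numbered soleus and quadriceps arrays correlated at r from -0.000482 to 0.377, above 0.1 in 4 of 6 pairs, and the pairing comes from numbers in the labels. A gene was called where the Benjamini-Hochberg adjusted p over all tested genes was under 0.05. The limma model was tried on simulated data for soleus minus quadriceps and for FG-4497 minus vehicle. KO minus WT and the counts near Egln1 were not tried in this way. Replicates are labelled biological.

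The genes, the lists and the rule for named genes were chosen with earlier results of these data known. The result of 1 list is not reported here. The rule names the 4 genes, Egln1 and its nearest neighbours, up to 8 genes within 50 tested genes of Egln1 that were called or apart in both muscles, per list and comparison up to 4 called genes or else the widest, and the 3 genes most like each of the 4. Alternatives changed the block, the arrays fitted, normalization, filter, prior variance, array weights, the probe set rule, and left out each array.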

Additional observations from a re-analysis of the deposited data

How the results depend on the processing

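The KO-minus-WT differences of the 4 genes kept their direction in all 21 alternatives in both muscles. The widest move was that of Rhou in soleus, from -0.44 to -0.32 without soleus KO replicate 2, and Def8 in quadriceps went from -0.27 to -0.24 with quantile normalization repeated. The rule that chose the genes was less steady. Trappc2l was called in 21 of 21 alternatives in each muscle, Def8 in 21 in soleus and 8 in quadriceps, Rhou in 2 in soleus and 21 in quadriceps, and Abcb10 in 7 in soleus and 11 in quadriceps. Within 50 tested genes of Egln1, the count of 3 called genes in soleus became 1 with no filter on low values and was 2 to 3 when arrays were left out. The count of 4 in quadriceps became 1 with no filter, 2 from the quadriceps arrays alone and 2 to 4 when arrays were left out. It was 2 without any of quadriceps KO replicates 1, 2 and 3, quadriceps WT replicates 1 and 3 and soleus KO replicates 1 and 2. With no filter more genes are tested, so 50 tested genes span a shorter stretch of the chromosome. In that setting Trappc2l and Def8 kept their calls in soleus, and Trappc2l and Rhou in quadriceps. The counts of 1 therefore leave out a gene that was still called. Genes other than the 4 were called within 50 tested genes of Egln1 in 1 alternative, array weights, with 1 gene in quadriceps.

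Over all genes, the 24 called in soleus became 62 when arrays were weighted, 12 from that muscle alone and 7 to 43 when arrays were left out. The 91 in quadriceps became 197, 25 and 27 to 98 under the same settings, 42 with no filter and 60 with the replicate number of the titles as a block. The 238 in heart became 445 from all 18 arrays, 147 with no filter, 373 with a trended, robust prior and 137 to 193 when arrays were left out. Muscle calls of the 4 genes were the same in all alternatives except the WT arrays alone, where Def8 (-0.06) and Abcb10 (0.14) were no longer called. With the mouse number as a fixed replicate block all 4 muscle calls held (adjusted p from 4.72e-06 to 0.0409), and without the block too. Title numbers were not read as joining mice across genotypes or hearts. Deviations of same-numbered KO and WT arrays correlated at r from -0.285 to 0.0789, above 0.1 in 0 of 6 pairs. Those of hearts correlated at r from -0.13 to 0.176, above 0.1 in 2 of 3 pairs, which does not settle the reading for hearts. In heart no alternative called any of the 4 genes (adjusted p from 0.16 to 0.996), and when arrays were left out Trappc2l ranged from -0.04 to 0.03 and Abcb10 from -0.02 to 0.07, changing sign without heart FG-4497 replicate 1 (0.01) and vehicle replicate 3 (0.03) for Trappc2l and without FG-4497 replicate 3 (-0.01) and vehicle replicate 3 (-0.02) for Abcb10. The cause of these changes was not tested.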
